A study of Mus musculus with 24 samples.

Results

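A set of 10 genes of glycolysis was followed across 2 germ cell fractions and 3 genotypes: Hk1, Aldoa, Aldoart1, Aldoart2, Tpi1, Gapdhs, Eno1, Eno4, Ldha and Ldhc. The 10 symbols were found through their Ensembl identifiers and gave 11 of the 55536 rows of the table, because a second identifier also carries the symbol Aldoa. All 11 rows passed the filter on low counts, and the lowest count of any of them in a library was 194. The table holds polyA RNA-seq of enriched pachytene/diplotene spermatocytes and round spermatids from the testes of C57BL/6J males aged 10 to 15 weeks, each library pooling 2 to 5 mice and the fractions being at least 70% pure by the study's account. The genotypes were Ago413+/+, Ago413+/- and Ago413-/-, in which a constitutive deletion on chromosome 4 removes all of Ago1 and parts of Ago3 and Ago4, the genes of 3 Argonaute proteins. After 3 libraries marked as outliers in the labels were set aside, 4 Ago413+/+, 3 Ago413+/- and 3 Ago413-/- spermatocyte libraries remained, and 3 Ago413+/+, 4 Ago413+/- and 4 Ago413-/- round spermatid libraries. Each library held between 12825105 and 29749058 counts over genes. Ago1 had 0 counts in all 7 Ago413-/- libraries, which allows up to 3 counts in each, and 1.71 to 4.49 CPM, counts-per-million values, in each of the others. The rows of Ago3 and Ago4, which are deleted only in part, check nothing: in spermatocytes Ago3 had 7.02 ± 2.89 CPM in Ago413+/+ and 64.8 ± 24.5 in Ago413-/- (SD, n = 4 and 3), and Ago4 32.1 ± 12.9 and 12.3 ± 3.39.

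Glycolysis splits glucose into pyruvate, and lactate dehydrogenase then turns pyruvate into lactate. Several of its steps are carried out in the sperm lineage by isozymes that the rest of the body does not use, among them GAPDHS for glyceraldehyde-3-phosphate dehydrogenase and LDHC for lactate dehydrogenase. Some of these isozymes are held on the fibrous sheath of the sperm tail, where they make ATP for motility. Their genes are copies of the widely expressed ones, and Aldoart1 and Aldoart2 are intronless retrocopies of Aldoa.

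In mm10 coordinates, Gapdhs (chromosome 7, 30729775-30743681, minus strand), Ldha (chromosome 7, 46841475-46855627, plus strand) and Ldhc (chromosome 7, 46861203-46878142, plus strand) lie on 1 chromosome, the last a near neighbour downstream of Ldha. Aldoa (chromosome 7, 126795234-126800751, minus strand) is there as well, and the row of the second Aldoa identifier (126800790-126809108) lies just upstream of it. Hk1 is at chromosome 10, 62268855-62379908 (minus strand), Tpi1 at chromosome 6, 124810586-124814296 (minus strand) and Eno4 at chromosome 19, 58943425-58971421 (plus strand). Eno1 (chromosome 4, 150236721-150248879, plus strand) and the single-exon Aldoart1 (chromosome 4, 72850583-72852634, minus strand) share the chromosome of the deletion. The single-exon Aldoart2 is at chromosome 12, 55565239-55566896 (plus strand). No annotated gene overlapped any of the 11 rows. Of the 100-base words of Eno1 transcripts 20.4% also occurred in other genes, nearly all of them in its retrocopy Eno1b, so reads of Eno1 and Eno1b may be split between the rows. The share was 0.59% for Ldha, 0.422% for Tpi1 and 0 for the other 8 rows, the Aldoa retrocopies included.

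Promoter windows from RefSeq (GRCm38.p6, 250 bases before to 50 after an annotated start) were given for 9 of the 10 symbols, with 17 windows in all. The following 4 are shown because Gapdhs and Hk1 had the largest differences between the fractions, and because Ldhc and Ldha, side by side on chromosome 7, were among the genes that did not pass the test there. They are written 5′ to 3′ on the gene's strand, from chr7:30743632-30743931 (minus) for Gapdhs, chr10:62379859-62380158 (minus) for Hk1, chr7:46861013-46861312 (plus) for Ldhc and chr7:46845554-46845853 (plus) for Ldha. Capitals mark matches on either strand to TGACNTCA, the cAMP response element (CRE) with its middle base left free, or to its half-site TGACG, which the full element TGACGTCA contains.
Gapdhs: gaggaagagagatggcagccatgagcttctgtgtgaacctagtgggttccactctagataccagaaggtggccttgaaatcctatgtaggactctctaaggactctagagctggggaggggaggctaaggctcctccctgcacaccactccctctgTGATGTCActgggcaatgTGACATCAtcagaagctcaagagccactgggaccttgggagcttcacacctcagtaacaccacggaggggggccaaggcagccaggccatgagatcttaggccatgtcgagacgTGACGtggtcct
Hk1: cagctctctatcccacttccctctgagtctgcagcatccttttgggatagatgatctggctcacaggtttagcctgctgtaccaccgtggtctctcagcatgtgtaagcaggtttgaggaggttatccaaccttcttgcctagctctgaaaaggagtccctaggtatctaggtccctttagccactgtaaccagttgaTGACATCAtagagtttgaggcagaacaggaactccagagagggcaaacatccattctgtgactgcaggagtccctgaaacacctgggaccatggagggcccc
Ldhc: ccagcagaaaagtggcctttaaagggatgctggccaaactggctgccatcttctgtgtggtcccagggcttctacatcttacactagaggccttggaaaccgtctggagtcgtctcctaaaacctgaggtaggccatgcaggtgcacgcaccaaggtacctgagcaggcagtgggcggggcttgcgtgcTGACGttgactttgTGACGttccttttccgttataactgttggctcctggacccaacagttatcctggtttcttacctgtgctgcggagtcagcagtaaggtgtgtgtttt
Ldha: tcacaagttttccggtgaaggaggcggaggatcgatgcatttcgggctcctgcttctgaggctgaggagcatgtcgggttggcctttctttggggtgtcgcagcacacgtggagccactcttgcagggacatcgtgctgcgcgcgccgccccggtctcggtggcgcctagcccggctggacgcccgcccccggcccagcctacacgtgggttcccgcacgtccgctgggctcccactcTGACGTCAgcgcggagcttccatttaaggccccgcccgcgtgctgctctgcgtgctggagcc
Gapdhs held 2 matches to TGACNTCA, starting at bases 157 and 175 of the window, and the half-site at 289, and its other window (chr7:30739358-30739657) held 2 matches to TGACNTCA, at 181 and 199. Hk1 held 1 at base 199 and Ldha 1 at base 239, the latter the full element, which reads as a half-site from either strand, while Ldhc held 2 half-sites at bases 190 and 204. The other windows of Hk1 and Ldhc held neither, that of Ldha held 1 half-site at base 108, and none of the windows of Eno1, Tpi1, Aldoa, Aldoart2 and Eno4 held either. Of 32851 windows of this length, 8.83% held TGACNTCA and 20.8% held TGACG. The motifs were chosen after these windows had been seen, a match is only a match of letters, and gene-level counts do not say which start a transcript used.

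Levels are given as CPM, with each library's total scaled by edgeR's trimmed mean of M-values. Hk1 encodes hexokinase 1, which phosphorylates glucose at the first step. It stood at 1181, 1427, 932 and 1182 CPM in the Ago413+/+ spermatocyte libraries, at 1573, 1788 and 855 in Ago413+/- and at 1563, 1351 and 1245 in Ago413-/-. In round spermatids the libraries gave 3978, 2868 and 2622 CPM in Ago413+/+, 5069, 2299, 2892 and 3882 in Ago413+/-, and 3797, 3894, 3246 and 2677 in Ago413-/-. Every round spermatid library was above every spermatocyte library. Replicate 3 of the Ago413+/- spermatocytes was the lowest of all 21 libraries for Hk1.

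Gapdhs, the sperm glyceraldehyde-3-phosphate dehydrogenase, also separated the fractions in every genotype. Spermatocyte libraries held 864, 799, 463 and 919 CPM in Ago413+/+, 998, 1097 and 767 in Ago413+/- and 1275, 926 and 705 in Ago413-/-. The values in round spermatids were 3077, 2121 and 2360 CPM in Ago413+/+, 4843, 1909, 2120 and 3163 in Ago413+/-, and 3605, 3744, 2788 and 2245 in Ago413-/-. Again no spermatocyte library reached the lowest round spermatid library, and within each fraction the genotypes overlapped.

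The aldolases cleave fructose-1,6-bisphosphate. Aldoart2, the more abundant retrocopy, had 279, 288, 215 and 372 CPM in Ago413+/+ spermatocytes, 404, 378 and 391 in Ago413+/- and 456, 378 and 363 in Ago413-/-. Its round spermatid values were 667, 602 and 603 CPM in Ago413+/+, 913, 497, 598 and 780 in Ago413+/-, and 904, 873, 659 and 598 in Ago413-/-. The 3 Ago413+/- spermatocyte libraries lay above all 4 of Ago413+/+, while the Ago413-/- libraries overlapped with them through 1 library, Ago413+/+ replicate 5. Aldoart1 had 89.7, 90.1, 80.6 and 137 CPM in Ago413+/+ spermatocytes, 138, 126 and 149 in Ago413+/- and 169, 132 and 142 in Ago413-/-. In round spermatids it had 185, 178 and 185 CPM in Ago413+/+, 262, 155, 182 and 263 in Ago413+/-, and 260, 238, 215 and 200 in Ago413-/-. The Ago413+/+ spermatocyte value of 137 CPM came from the same replicate 5 and lay far from the other 3. Aldoa itself ranged from 205 to 311 CPM in Ago413+/+ spermatocytes and from 474 to 591 in Ago413+/+ round spermatids, and the second Aldoa row stayed between 10.3 and 23.4 CPM in all 21 libraries.

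Tpi1, triosephosphate isomerase, had 414, 437, 350 and 437 CPM in Ago413+/+ spermatocytes, 452, 454 and 582 in Ago413+/- and 520, 468 and 395 in Ago413-/-. Round spermatid libraries held 861, 643 and 705 CPM in Ago413+/+, 967, 529, 589 and 779 in Ago413+/-, and 1093, 986, 725 and 613 in Ago413-/-. Its fractions did not overlap in Ago413+/+ and Ago413-/- and did in Ago413+/-, where the spermatocyte value of 582 CPM was from replicate 3. The enolases, which make phosphoenolpyruvate, differed from each other. Eno1 ranged from 303 to 413 CPM over the spermatocyte libraries and from 425 to 696 over the round spermatid libraries, while the sperm enolase Eno4 ranged from 77.9 to 105 and from 81.9 to 101.

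Ldhc, the testis lactate dehydrogenase, had similar values in both fractions. Ago413+/+ spermatocytes had 4695, 5047, 4423 and 4365 CPM, Ago413+/- had 3669, 3332 and 4652 and Ago413-/- had 3709, 4242 and 3886. Round spermatids had 4279, 3967 and 4231 CPM in Ago413+/+, 3930, 3548, 3817 and 3937 in Ago413+/-, and 4907, 4348, 3834 and 3592 in Ago413-/-. All 3 Ago413-/- spermatocyte libraries lay below all 4 Ago413+/+ ones, and in Ago413+/+ mice the round spermatid libraries lay below the spermatocyte libraries. For the latter edgeR gave a log2 fold change of -0.16 (SE 0.13, adjusted p = 0.396). The share of all genes lower in round spermatids without overlap was not computed. Ldha, the widely expressed lactate dehydrogenase A, had 1466, 1356, 1377 and 1293 CPM in Ago413+/+ spermatocytes, 1067, 978 and 1249 in Ago413+/- and 997, 1284 and 1101 in Ago413-/-. Round spermatid values of Ldha were 1234, 1073 and 1349 CPM in Ago413+/+, 979, 998, 1041 and 1040 in Ago413+/-, and 1182, 1063, 1011 and 941 in Ago413-/-. In spermatocytes both mutant genotypes lay below Ago413+/+ without overlap for Ldha.

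**Figure D1:**
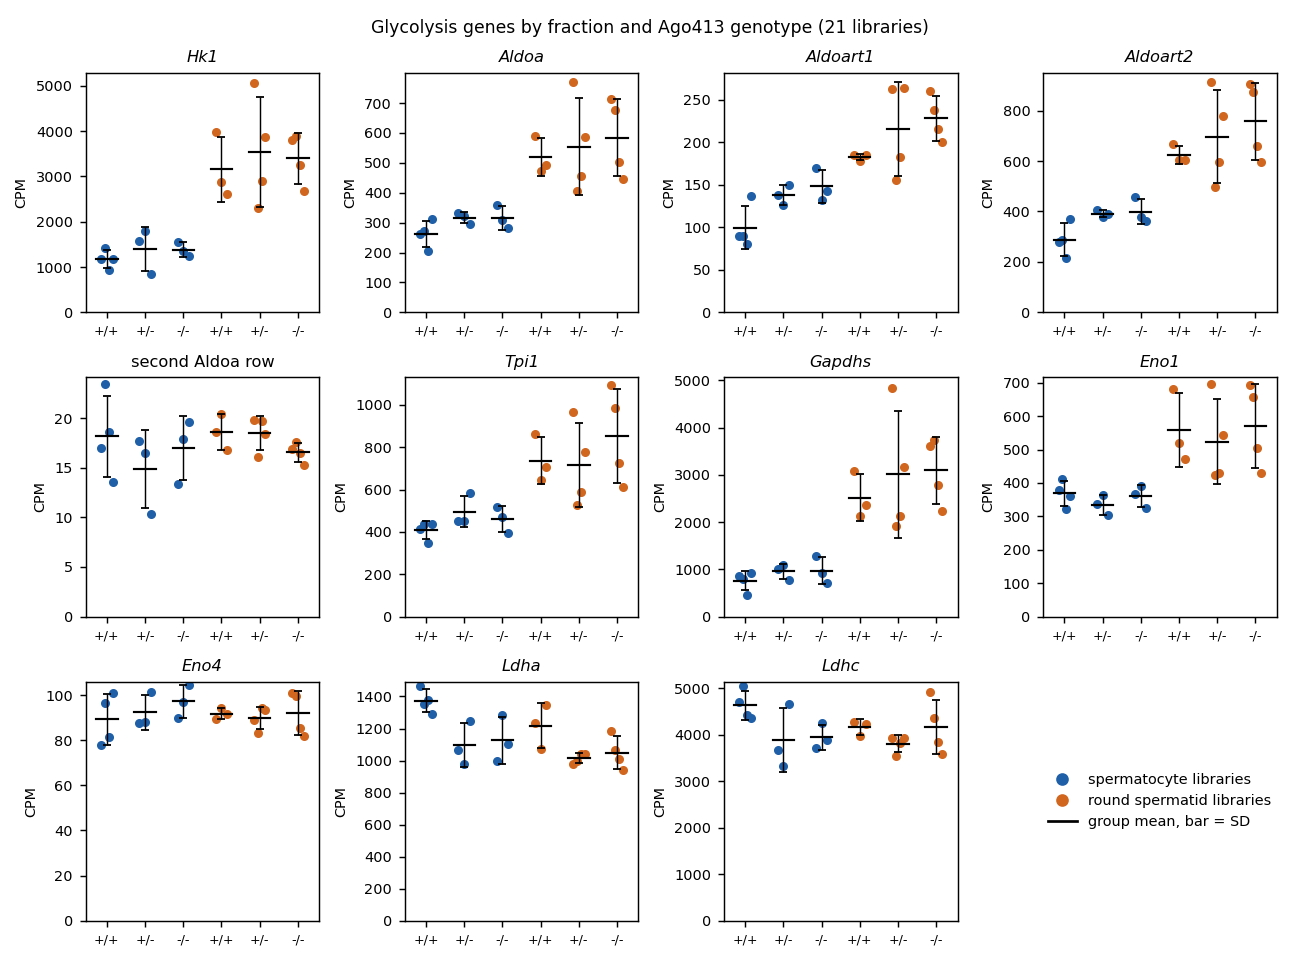
Level of each glycolysis gene in CPM (linear axis from 0) in 21 libraries, by Ago413 genotype, with spermatocyte libraries in blue, round spermatid libraries in orange, group means as lines and SD as bars. Gapdhs rose from a mean of 761 CPM in Ago413+/+ spermatocytes to 2520 in Ago413+/+ round spermatids, and Eno4, Ldha, Ldhc and the second Aldoa row passed the test in no genotype.

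Together the 11 rows took 1.01% ± 0.0728 (SD, n = 4) of all counts in Ago413+/+ spermatocytes and 1.30% ± 0.106 (SD, n = 3) in Ago413+/+ round spermatids. To set genes beside each other, CPM was divided by the summed exon length of each gene in kb, which understates a gene with many alternative exons such as Hk1. In Ago413+/+ spermatocytes the order was Ldhc with 2932 ± 197 CPM per kb (SD, n = 4), Gapdhs with 473 ± 127, Ldha with 415 ± 21.6, Aldoart2 with 174 ± 38.8, Tpi1 with 149 ± 15.1 and Hk1 with 138 ± 23.7. Below them came Aldoa with 90.2 ± 15.1, Eno1 with 68.5 ± 7.1, Aldoart1 with 48.4 ± 12.4, Eno4 with 34.7 ± 4.42 and the second Aldoa row with 22.7 ± 5.15. Ldhc was above every other gene of the set in each Ago413+/+ spermatocyte library. The ranges there of Gapdhs and Ldha, of Aldoart2, Tpi1 and Hk1 in turn, and of Aldoa, Eno1, Aldoart1 and Eno4 in turn, overlapped between neighbours. In Ago413+/+ round spermatids Gapdhs reached 1565 ± 309 CPM per kb (SD, n = 3) beside 2632 ± 106 for Ldhc. Aldoart2 (376 ± 22.2), Hk1 (370 ± 84.7) and Ldha (368 ± 41.8) followed with overlapping ranges, then Tpi1 (268 ± 40.9), Aldoa (178 ± 21.5), the overlapping Eno1 (104 ± 20.5) and Aldoart1 (89 ± 1.86), Eno4 (35.7 ± 0.995) and the second Aldoa row (23.3 ± 2.26). In Ago413+/- and Ago413-/- round spermatids the ranges of Ldhc and Gapdhs overlapped.

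Among paired isozyme genes, counts per kb of exon went mostly to the germ cell copy in 3 families and not in the fourth. Ldhc held 87.6% ± 0.748 (SD, n = 4) of the Ldha and Ldhc counts per kb in Ago413+/+ spermatocytes and 87.8% ± 0.895 (SD, n = 3) in Ago413+/+ round spermatids. In Ago413-/- the shares were 88% ± 0.631 (SD, n = 3) and 89.2% ± 0.445 (SD, n = 4). Gapdhs held 98.6% ± 0.576 of Gapdh and Gapdhs in Ago413+/+ spermatocytes and 99.5% ± 0.053 in Ago413+/+ round spermatids. Of the raw counts it held 96.6% ± 1.41 and 98.6% ± 0.134, and words that Gapdh shares with other genes were not examined. Aldoart1 and Aldoart2 together held 71% ± 1.47 of the aldolase sum with Aldoa in Ago413+/+ spermatocytes, 73.6% ± 1.42 in Ago413+/- and 74.2% ± 0.799 in Ago413-/-. The corresponding aldolase shares in round spermatids were 72.4% ± 1.38, 73.5% ± 1.31 and 74% ± 0.761. Eno4 was the minority of its pair, with 33.6% ± 2.95 of Eno1 and Eno4 in Ago413+/+ spermatocytes and 26% ± 3.92 in Ago413+/+ round spermatids. That share depends on the long summed exons of Eno1, since of the raw counts Eno4 held 19.5% ± 2.07 and 14.4% ± 2.48. These shares are descriptions with no test.

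**Figure D2:**
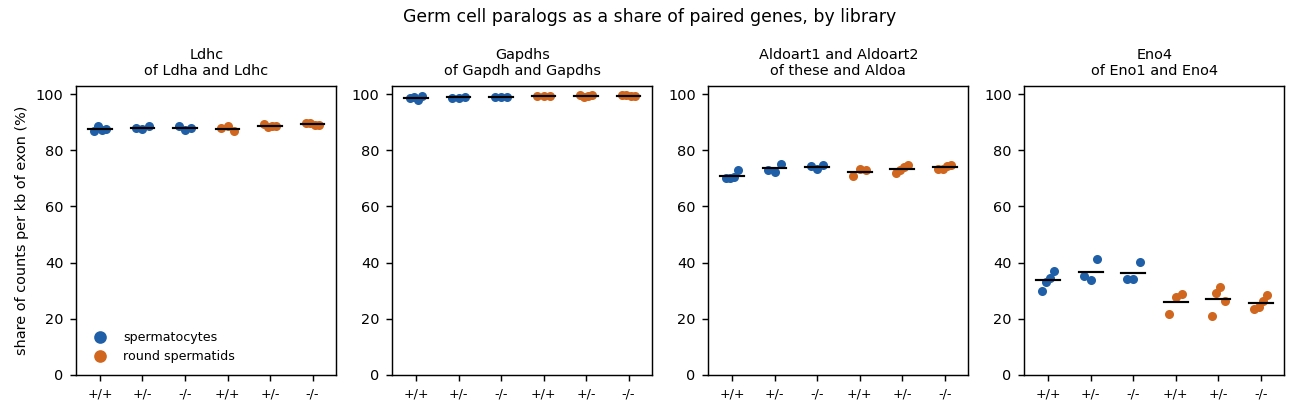
Share of counts per kb of exon that went to the germ cell copy in 4 isozyme families (linear axis from 0 to 100%), 1 point per library, lines at group means, blue for spermatocytes and orange for round spermatids. Ldhc, Gapdhs and the Aldoa retrocopies held the majority in all 21 libraries, and Eno4 held 21.1% to 41.2% in each.

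The first comparison asked how the genes differ between round spermatids and spermatocytes of one genotype. A gene was called when its Benjamini-Hochberg adjusted p in edgeR's quasi-likelihood test was under 0.05 and its log2 fold change was over 0.5 in size. In Ago413+/+ mice 7 of the 11 rows were called higher in round spermatids and none lower, where 12.7% of all 20404 genes tested were called higher and 11.4% lower. Gapdhs was 3.31-fold higher (log2 fold change 1.73, SE 0.28, adjusted p = 0.000482) and Hk1 2.67-fold higher (1.42, SE 0.24, adjusted p = 0.000559). Among the aldolases Aldoart2 rose by 1.11 on the log2 scale (SE 0.19, adjusted p = 0.000566), Aldoa by 0.98 (SE 0.20, adjusted p = 0.00122) and Aldoart1 by 0.88 (SE 0.18, adjusted p = 0.0017). Tpi1 rose by 0.85 (SE 0.20, adjusted p = 0.00397) and Eno1 by 0.60 (SE 0.18, adjusted p = 0.0185). The 7 called rows were also those whose round spermatid libraries all exceeded all spermatocyte libraries, a pattern seen in 17.3% of all genes. Ldhc gave -0.16 (SE 0.13, adjusted p = 0.396), Ldha -0.17 (SE 0.12, adjusted p = 0.325), Eno4 0.04 (SE 0.12, adjusted p = 0.842) and the second Aldoa row 0.04 (SE 0.19, adjusted p = 0.893). The 95% interval of the difference was -0.42 to 0.11 for Ldhc and -0.22 to 0.30 for Eno4. The Eno1 call was lost without round spermatid replicate 1 (0.43, adjusted p = 0.128) and without spermatocyte replicate 4 (0.54, adjusted p = 0.0635), whereas the calls of the other 6 rows held without any 1 library.

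In Ago413-/- mice the same 7 rows were called higher, where 11.7% of all genes were called higher and 5.42% lower, and 7 did not overlap between fractions, a pattern of 18.7% of all genes. Gapdhs was 3.19-fold higher (1.68, SE 0.30, adjusted p = 0.00106) and Hk1 2.46-fold (1.30, SE 0.25, adjusted p = 0.00158). Without Ago413-/- spermatocyte replicate 3, 4 rows were called, where 5.29% of all genes were then called higher, the calls of Tpi1 (0.79, adjusted p = 0.0525), Aldoart1 (0.60, adjusted p = 0.114) and Eno1 (0.59, adjusted p = 0.107) being lost. Aldoart1 and Eno1 were also lost without round spermatid replicate 1 (0.56, adjusted p = 0.0745, and 0.56, adjusted p = 0.0645) or replicate 2 (0.61, adjusted p = 0.0571, and 0.59, adjusted p = 0.0557), and Aldoart1 without spermatocyte replicate 2 (0.55, adjusted p = 0.11). In Ago413+/- mice 6 rows were called higher, where 7.07% of all genes were called higher and 1.82% lower, and 6 did not overlap, as 10.9% of all genes. Gapdhs was 3.15-fold higher (1.66, SE 0.30, adjusted p = 0.00194), Hk1 2.52-fold (1.33, SE 0.25, adjusted p = 0.00258), and Tpi1 did not pass (0.53, SE 0.21, adjusted p = 0.112). Leaving out Ago413+/- round spermatid replicate 1 or spermatocyte replicate 3 left 3 rows called, Gapdhs, Hk1 and Aldoart2, where 4.3% and 4.44% of all genes were then called higher, with Aldoa at 0.61 (adjusted p = 0.0651) and 0.74 (adjusted p = 0.0576). The Aldoart1 call was lost on leaving out any of spermatocyte replicates 1 to 3 or round spermatid replicates 1 and 4, and the Eno1 call on leaving out any of these but spermatocyte replicate 2. With consecutive library numbers as a block the Aldoart1 call was lost too (0.50, adjusted p = 0.147), which left 5 rows called. Without round spermatid replicate 2 Tpi1 was called as well (0.65, adjusted p = 0.0427). Ldhc, Ldha, Eno4 and the second Aldoa row were not called in any genotype.

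The 3 libraries set aside moved these results. The Ago413+/+ spermatocyte library among them had 1749 CPM of Gapdhs and 2570 of Hk1 (CPM of its unscaled total), above every spermatocyte library used, and the Ago413+/+ round spermatid library had 938 and 1809, below every round spermatid library used. The Ago413+/- spermatocyte library had 1594 and 2261. With all 3 added back, 0 of the 11 rows were called in Ago413+/+ and 0 in Ago413+/-, with Gapdhs at 1.15 (adjusted p = 0.063) and 1.43 (adjusted p = 0.0712). The same held for all genes, of which 0% were then called higher in either genotype.

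**Figure D3:**
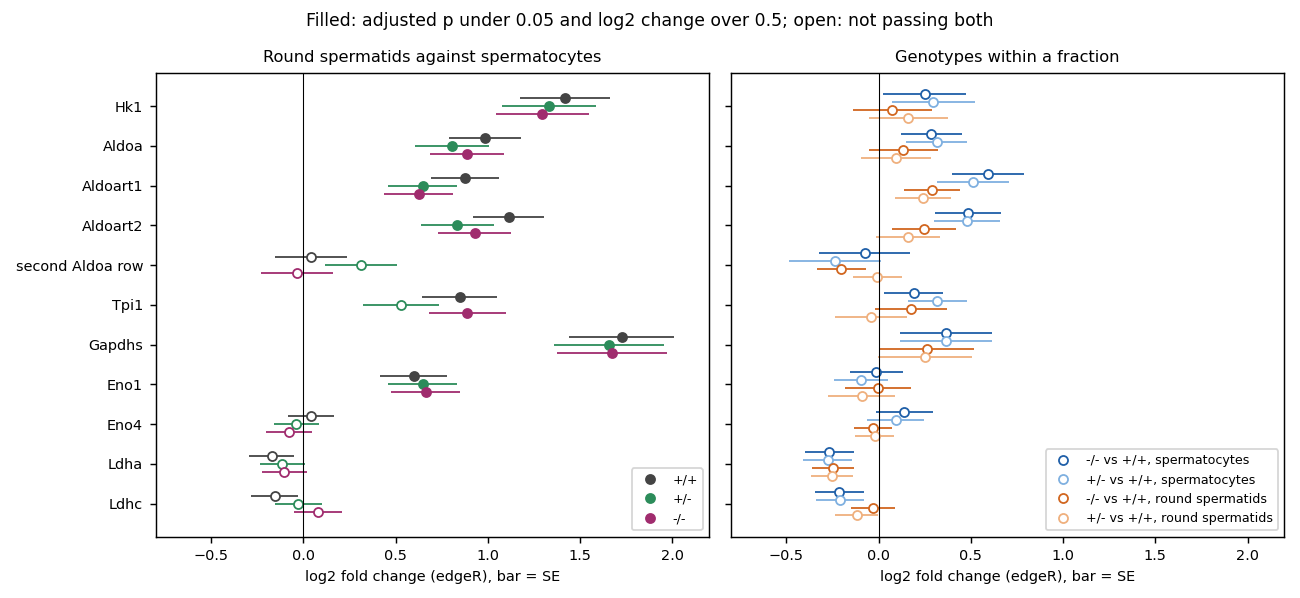
Log2 fold change with its SE (edgeR) for each gene, between round spermatids and spermatocytes of each genotype on the left and of Ago413-/- and Ago413+/- against Ago413+/+ within each fraction on the right. Filled points passed both thresholds: 7 rows in Ago413+/+, 6 in Ago413+/- and 7 in Ago413-/- on the left, and 0 on the right.

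Marker genes of neighbouring stages moved with these differences, and their part in the results was not tested. The 6 elongating spermatid genes (Prm1, Prm2, Tnp1, Tnp2, Odf1 and Smcp) were all called higher in round spermatids in each genotype, and their sum rose from 3746 to 8800 CPM in Ago413+/+ spermatocyte libraries to 23270 to 33483 CPM in Ago413+/+ round spermatid libraries. None of the 6 was at 0 in a group. The 8 spermatocyte genes summed to 2531 to 3501 CPM and 1922 to 2143 CPM in the same groups, with 6 of 8 called lower. The 8 round spermatid genes did not separate the fractions by their sum, with 755 to 1356 CPM in Ago413+/+ spermatocytes and 967 to 1462 CPM in Ago413+/+ round spermatids, and 1 of 8 was called. In these bulk samples fewer cells of a type and less RNA per cell cannot be told apart. Somatic lists were low beside these: 8 Sertoli genes summed to 145 to 401 CPM in Ago413+/+ spermatocytes and 163 to 420 CPM in Ago413+/+ round spermatids, 9 macrophage genes to 7.93 to 13.6 and 16.1 to 22.7 CPM with Lyz2 and C1qc at 0 in the former and 6 of 9 called higher in round spermatids of each genotype, and the Leydig, peritubular myoid and erythrocyte lists to at most 10.1 CPM in these groups. Spermatogonial genes, 6 in all, summed to 37.7 to 48 CPM and 60.5 to 67.2 CPM.

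Within a fraction, Gapdhs was higher in libraries with a higher elongating spermatid sum (both as log2 CPM). Over the 11 round spermatid libraries Pearson's r was 0.92 (permutation p = 9e-05, adjusted p = 0.000495, Spearman's rho = 0.95, permutation p = 6e-05, adjusted p = 0.00033), and 0.96 without the 2 libraries farthest from the median sum. Over the 10 spermatocyte libraries r was 0.88 (permutation p = 0.00043, adjusted p = 0.00158, rho = 0.71, permutation p = 0.0266, adjusted p = 0.065), and 0.73 without the 2 farthest. Tpi1 gave an r of 0.97 in round spermatids (permutation p = 1e-05, the smallest that 100000 resamples can give, adjusted p = 0.00022, rho = 0.97, permutation p = 2e-05, adjusted p = 0.00022), 0.97 without the 2 farthest. In spermatocytes Tpi1 gave 0.63 (permutation p = 0.0521, adjusted p = 0.104, rho = 0.37, permutation p = 0.295, adjusted p = 0.464), and -0.01 without the 2 farthest, so that value rests on them. For Ldhc r was 0.74 in round spermatids (permutation p = 0.00811, adjusted p = 0.0198, rho = 0.70, permutation p = 0.0209, adjusted p = 0.0574, 0.64 without the 2 farthest) and -0.15 in spermatocytes (permutation p = 0.681, adjusted p = 0.749, rho = -0.16, permutation p = 0.658, adjusted p = 0.689, -0.37 without the 2 farthest). Of the 22 relations computed over 11 rows and 2 fractions, 8 in round spermatids and 2 in spermatocytes had an adjusted p under 0.05 by Pearson's r, and 7 and 0 by Spearman's rho. The share of all genes with such a relation was not computed, so these counts do not single out the set. Among the 7 libraries of each fraction with library numbers up to 60, Gapdhs gave r of 0.94 in spermatocytes and 0.93 in round spermatids, and the 3 and 4 libraries above 60 were too few. Each fraction's libraries mix the 3 genotypes, and both measures of a library share its total.

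**Figure D4:**
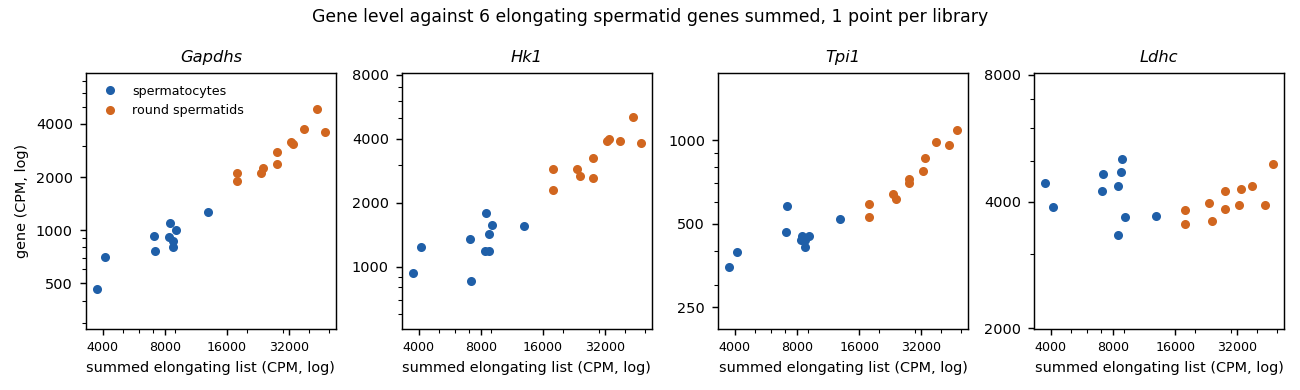
Level of Gapdhs, Hk1, Tpi1 and Ldhc (CPM, log axes) against the summed CPM of 6 elongating spermatid genes, 1 point per library, blue for the 10 spermatocyte and orange for the 11 round spermatid libraries. Gapdhs climbed with the sum in both fractions (r = 0.88 and 0.92), and Ldhc did not climb among spermatocytes (r = -0.15).

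By the pattern over all 21 libraries, the genes outside the set most like Gapdhs were AI507597 (r = 0.99), Spata3 (r = 0.99) and Gm20163 (r = 0.99), of 16053 genes with a mean of at least 1 CPM. The genes most like Ldhc were Rtca (r = 0.95), 1700008K24Rik (r = 0.93) and Ppp1cc (r = 0.92). These r are descriptions over log2 CPM, the libraries shared a fraction and a scaling, and within the spermatocyte and round spermatid libraries AI507597 gave 0.97 and 0.97 with Gapdhs, and Rtca 0.97 and 0.95 with Ldhc. Among the members, Gapdhs and Aldoa gave 0.93 over the 10 spermatocyte and 0.97 over the 11 round spermatid libraries, Ldhc and Ldha 0.91 and 0.69, and Gapdhs and Ldhc -0.50 and 0.54.

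The second comparison asked what loss of the Argonaute genes does to the set in spermatocytes. Between Ago413-/- and Ago413+/+ spermatocytes 0 of the 11 rows were called by edgeR, where 0.0411% of 19450 genes were called. The 2 rows with an unadjusted p under 0.05 were the Aldoa retrocopies, and 30.4% of all genes had one. Aldoart1 was at 1.51-fold (log2 fold change 0.59, SE 0.19, 95% interval 0.17 to 1.01, adjusted p = 0.078) and Aldoart2 at 1.40-fold (0.48, SE 0.18, 95% interval 0.095 to 0.871, adjusted p = 0.101). DESeq2 called Aldoart1 (0.62, adjusted p = 0.0347) and no other member, where it called 9.08% of all genes higher. With edgeR Aldoart1 alone was called with no filter on low counts (0.61, adjusted p = 0.0409), where 4.76% of all genes were called higher, and with both fractions in 1 fit (0.57, adjusted p = 0.0323), where 10.3% were. Without Ago413+/+ replicate 5 edgeR called both Aldoart1 (0.80, adjusted p = 0.00722) and Aldoart2 (0.64, adjusted p = 0.0189), and it then called 13.9% of all genes higher. The adjusted p of Aldoart1 ran from 0.00722 to 0.322 over its 15 alternatives and that of Aldoart2 from 0.0189 to 0.425. The remaining rows ran from -0.27 for Ldha (SE 0.13, adjusted p = 0.19) and -0.21 for Ldhc (SE 0.13, adjusted p = 0.282) to 0.37 for Gapdhs (SE 0.25, adjusted p = 0.328). Ldhc and Ldha were the 2 rows whose groups did not overlap, both lower in Ago413-/-, a separation that 28% of all genes showed in one direction or the other.

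Marker sums moved between these genotypes too, and their part in the result was not tested. The 8 round spermatid genes summed to 755 to 1356 CPM in Ago413+/+ and 1342 to 1575 CPM in Ago413-/- spermatocytes, all 8 with a positive and uncalled fold change. The 8 spermatocyte genes summed to 2531 to 3501 and 1820 to 2507 CPM, and the elongating list to 3746 to 8800 and 4083 to 12922 CPM. Sertoli genes summed to 145 to 401 and 86.9 to 157 CPM.

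Ago413+/- against Ago413+/+ spermatocytes likewise gave 0 of 11 calls with edgeR and with DESeq2, where edgeR called 0.0257% of 19450 genes and DESeq2 1228 of them. By edgeR 2 rows had an unadjusted p under 0.05, where 24.6% of all genes had one. Values were close to those of the homozygotes, which were set against the same 4 Ago413+/+ libraries: Aldoart1 0.51 (SE 0.19, adjusted p = 0.148), Aldoart2 0.48 (SE 0.18, adjusted p = 0.146), Gapdhs 0.37 (SE 0.25, adjusted p = 0.371) and Ldha -0.28 (SE 0.13, adjusted p = 0.215). The 3 rows that did not overlap were Aldoart2 and Tpi1, higher, and Ldha, lower, where 17.6% of all genes did not overlap. Without Ago413+/+ replicate 5 Aldoart1 (0.72, adjusted p = 0.0211) and Aldoart2 (0.64, adjusted p = 0.0294) were called, where 10.8% of all genes were then called higher. The 8 spermatocyte genes summed to 2083 to 2440 CPM in Ago413+/- spermatocytes, below all Ago413+/+ libraries, the 8 round spermatid genes to 1165 to 2331, the elongating list to 7130 to 9100 and the Sertoli list to 79.7 to 426. The 6 spermatogonial genes summed to 64.2 to 86.9 CPM, above the 37.7 to 48 CPM of Ago413+/+, and the part of these lists in the values was not tested. Ago413-/- against Ago413+/- spermatocytes gave 0 calls with either tool, where edgeR called 0.00514% of all genes and DESeq2 4 of 19450. By edgeR 0 rows had an unadjusted p under 0.05, where 3.74% of all genes had one. The edgeR fold changes ran from -0.13 (Tpi1) to 0.16 (the second Aldoa row).

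The same genotypes were compared in round spermatids. Between Ago413-/- and Ago413+/+ 0 of 11 rows were called by edgeR or DESeq2, where DESeq2 called 702 of 19310 genes and edgeR 0.0518% of them. By edgeR 1 row, Ldha, had an unadjusted p under 0.05, as 19.3% of all genes did. Aldoart1 gave 0.29 (SE 0.15, adjusted p = 0.313) and was the 1 row whose groups did not overlap, as 19.4% of all genes did not. Ldha gave -0.25 (SE 0.11, 95% interval -0.49 to -0.0046, adjusted p = 0.25), Gapdhs 0.26 (SE 0.25, 95% interval -0.28 to 0.80, adjusted p = 0.596) and Ldhc -0.03 (SE 0.12, 95% interval -0.28 to 0.22, adjusted p = 0.911). Between Ago413+/- and Ago413+/+ 0 rows were called by either tool, where edgeR called 0.0207% of all genes and DESeq2 7 of 19310. By edgeR 1 row, again Ldha, had an unadjusted p under 0.05, as 8.88% of all genes did. Ldhc and Ldha lay lower without overlap, where 9.81% of all genes did not overlap. Ldha gave -0.25 (SE 0.11, adjusted p = 0.553) there. Between Ago413-/- and Ago413+/- again 0 rows were called by either tool, where edgeR called 0.00518% of all genes and DESeq2 20 of 19310. By edgeR 0 rows had an unadjusted p under 0.05, where 7.67% of all genes had one. In the same groups the 8 spermatocyte genes summed to 1922 to 2143 CPM in Ago413+/+, 1760 to 2086 in Ago413+/- and 1600 to 1788 in Ago413-/-, and the elongating list to 23270 to 33483, 17830 to 43846 and 24049 to 47725 CPM. The 8 round spermatid genes summed to 967 to 1462, 1212 to 1618 and 1349 to 1733 CPM, and the 9 macrophage genes to 16.1 to 22.7, 21.8 to 44.9 and 34.3 to 44.5 CPM, so that the Ago413-/- libraries lay above those of Ago413+/+ for the latter. The part of these lists in these values was not tested. The genotype effect was also compared between fractions. The difference of the Ago413-/- effect in round spermatids from that in spermatocytes was called for 0 of 11 rows and for 0% of 20404 genes by edgeR, with 1215 of all genes (5.95%) and 0 of the members under an unadjusted p of 0.05, and DESeq2 called none either. The differences ran from -0.25 for Aldoart1 (SE 0.26, adjusted p = 0.853) to 0.24 for Ldhc (SE 0.18, adjusted p = 0.817).

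A list of 39 other genes of glucose uptake, glycolysis and pyruvate use gives the surroundings of the set, and 36 of them could be tested across fractions. In Ago413+/+ mice 8 of 36 were higher in round spermatids and 2 lower, where 12.7% and 11.4% of all genes were, with a list median log2 fold change of 0.32 beside 0.85 for the 11 rows and 0.02 for all genes. In Ago413+/- 6 were higher and 0 lower, where 7.07% and 1.82% of all genes were, and in Ago413-/- 12 were higher and 1 lower, where 11.7% and 5.42% were. The glucose-6-phosphate isomerase gene Gpi1 rose from 199 ± 60.3 CPM (SD, n = 4) to 754 ± 196 (SD, n = 3) in Ago413+/+ (1.93, SE 0.37, adjusted p = 0.00105). Pkm, the pyruvate kinase gene, rose from 140 ± 36.1 to 449 ± 115 CPM (1.68, SE 0.30, adjusted p = 0.000675). Pgk2, the phosphoglycerate kinase retrogene of male germ cells, rose from 695 ± 134 to 1287 ± 158 CPM (0.89, SE 0.21, adjusted p = 0.00389), and its X-linked parent Pgk1 had 4.73 ± 1.41 and 7.94 ± 1.38 CPM (0.75, SE 0.29, adjusted p = 0.0598). Eno1b rose by 1.02 (SE 0.23, adjusted p = 0.00321) at 7.92 ± 2.05 and 16.2 ± 0.703 CPM. The 2 that fell, named here after their values were seen, were the glucose transporter gene Slc2a3 (-1.09, SE 0.32, adjusted p = 0.0167) and the muscle enolase gene Eno3 (-0.56, SE 0.16, adjusted p = 0.0115).

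Other named genes of the list gave no call between the fractions in Ago413+/+. The lactate dehydrogenase retrogene Ldhal6b had 992 ± 81 and 872 ± 46 CPM (-0.19, SE 0.13, adjusted p = 0.304), and the phosphoglycerate mutase gene Pgam2 888 ± 92.6 and 1096 ± 146 CPM (0.30, SE 0.20, adjusted p = 0.288). Pfkp, of phosphofructokinase, had 234 ± 17.8 and 213 ± 5.54 CPM (-0.14, SE 0.15, adjusted p = 0.526). Gapdh stood at 24.6 ± 3.46 and 34.5 ± 6.1 CPM (0.49, SE 0.22, adjusted p = 0.102), Ldhb at 19.5 ± 9.28 and 26.8 ± 10.1 CPM (0.47, SE 0.46, adjusted p = 0.48), Hk2 at 7.29 ± 3.62 and 10.8 ± 3.57 CPM (0.59, SE 0.42, adjusted p = 0.32) and Pgam1 at 5.5 ± 1.14 and 6.96 ± 1.48 CPM (0.35, SE 0.33, adjusted p = 0.459). Per kb of exon in Ago413+/+ spermatocytes, Gapdh had 5.96 ± 0.838 and Ldhb 12.4 ± 5.91 CPM, beside 473 for Gapdhs and 2932 for Ldhc. In the 6 comparisons between genotypes edgeR called 0 genes of the list in either direction, of 36 tested in spermatocytes and 35 in round spermatids, with 0 to 7 genes under an unadjusted p of 0.05, where 3.74% to 30.4% of all genes had one. The counts of 7 were in Ago413-/- against Ago413+/+, where 30.4% of all genes had such a p in spermatocytes and 19.3% in round spermatids. DESeq2 called 4 of 36 higher in Ago413-/- spermatocytes against Ago413+/+, where it called 9.08% of all genes higher, and among these, named after their values were seen, were Pfkfb1 (0.81, adjusted p = 0.0213), Pfkfb3 (0.71, adjusted p = 0.0349) and Slc16a7 (0.59, adjusted p = 0.0193). It called 1 of 36 lower in Ago413+/- spermatocytes, Slc2a3 (-1.10, adjusted p = 0.0472), where it called 2.79% of all genes lower, and 1 of 35 lower in Ago413-/- round spermatids, Slc2a8 (-0.62, adjusted p = 0.0434), where it called 2% lower. In the other 3 comparisons it called none of the list, where it called 4 to 20 of all genes. In Ago413-/- against Ago413+/+ spermatocytes the list's median was -0.11 beside 0.19 for the 11 rows and -0.03 for all genes, and in round spermatids 0.15 beside 0.08 and 0.03. In Ago413+/- against Ago413+/+ it was 0.21 beside 0.30 and 0.07 in spermatocytes and -0.06 beside -0.01 and 0.01 in round spermatids.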

How the data were processed

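The authors trimmed the reads with Trim Galore and counted them per gene with STAR (GeneCounts mode) on mm10, as the labels and methods state; versions, annotation release and strand setting are not given in the sources used here. The deposited values are raw counts, 1 column per library, none pooled. All 55536 Ensembl identifiers matched GENCODE M21, which gave symbols, coordinates and exon lengths. The 10 genes and the gene lists were chosen with earlier results of these data known, and the text names all 10, fixed genes of the 39-gene list, any list gene that edgeR called between genotypes (there was none), the 3 genes most alike to Gapdhs and to Ldhc, and, outside this rule, 6 list genes named after their values were seen. The 3 libraries that the labels mark as outliers were left out of the main fits.

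Genes with at least 10 counts in 3 libraries were kept, scaled by trimmed mean of M-values and tested with edgeR 4.0.16 (quasi-likelihood, R 4.3.3), with Benjamini-Hochberg adjustment over all genes. Genotypes were compared within a fraction, each fraction fitted on its own, and the fractions in 1 fit of all 6 groups. Log2 CPM used a prior count of 2. Intervals use the test's degrees of freedom. Alternatives were DESeq2 1.42.0, median-of-ratios scaling, no filter, no fold limit, the outlier libraries added back, blocks on replicate or consecutive library numbers, a term for library numbers above 60, other sets of groups and leaving out each library. The scripts were tested on simulated data. Replicates are pools of mice, so p-values and intervals measure the spread between pools, and the limit given for a count of 0 covers counting error only.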

Additional observations from a re-analysis of the deposited data

Results flagged for a closer look

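Aldoart1 in Ago413+/+ spermatocytes held 1 library far from the rest: replicate 5 had 137 CPM where the other 3 had 80.6 to 90.1, a gap of 0.83 of the group's range, just past the limit of Dixon's test for 4 samples. It was the only such case among 33 groups of 4 libraries examined over the 11 rows. Chance gives about 1 in 20 for each group, so 1 case among 33 does not stand out from chance. The rows also share their libraries, so the groups are not independent. Against Ago413+/+ spermatocytes, edgeR fitted within the fraction called Aldoart1 and Aldoart2 in both Ago413-/- and Ago413+/- without that library and neither of them with it. Other settings that kept the library called Aldoart1 in Ago413-/-.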

How the results depend on the processing

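The members' calls between genotypes depended on the setting in spermatocytes. Between Ago413-/- and Ago413+/+ spermatocytes 0 rows were called, and 1 with DESeq2, 1 with no filter on low counts and 1 with both fractions in 1 fit, Aldoart1 each time, and 0 to 2 when 1 library was left out. Between Ago413+/- and Ago413+/+ spermatocytes leaving out 1 library gave 0 to 2 and the remaining alternatives 0. The other genotype comparisons and the difference between fractions gave 0 under each alternative. Of the fraction counts, 7 in Ago413+/+ became 0 with the outlier libraries added back and stayed at 6 to 7 with 1 library left out, 6 in Ago413+/- became 0 and ran from 3 to 7, and 7 in Ago413-/- ran from 4 to 7 with 1 left out. The cause of these changes was not tested, apart from the libraries added or removed. Replicate numbers were not taken to mark shared animals, and the correlations cannot decide it. Deviations from group means correlated above 0.1 in 13 of 42 same-numbered pairs (-0.40 to 0.31). Most of these pairs join different genotypes, which cannot share animals. Pairs of consecutive library numbers correlated above 0.1 in 8 of 9 cases. Some pairs are in both sets, among them replicate 1 of Ago413+/+ (r = 0.31) and of Ago413-/- (r = 0.22). With the replicate block Gapdhs differed between the fractions by 1.85 in Ago413+/+ (adjusted p = 0.000126), Aldoart1 in Ago413-/- against Ago413+/+ spermatocytes gave 0.71 (adjusted p = 0.0768), and this block changed no call of the members. With consecutive library numbers as a block Aldoart1 lost its call in Ago413+/- (0.50, adjusted p = 0.147), and with the outlier libraries added back it lost that in Ago413-/- (0.63, adjusted p = 0.0799). Isoform shares moved with length: from raw counts Ldhc held 77.1% and Eno4 19.5% in Ago413+/+ spermatocytes. With 3 or 4 pools a group, differences such as that of Gapdhs between genotypes (SE 0.25) leave wide intervals.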
